A study of Mus musculus with 18 samples.

Results

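The transcripts described here are 31 genes of the 35667 in the deposited mouse table: 2 ligands of the colony stimulating factor 1 receptor, Csf1 and Il34, and 29 genes used as markers of macrophages, from the receptor gene Csf1r itself to genes typical of Kupffer cells. They were taken by gene symbol from a list of Kupffer and general macrophage genes plus both ligands, and each symbol was found. The study placed hepatic stellate cells (HSC), the vitamin A storing cells beside the liver sinusoids, and intrahepatic cholangiocyte organoids (ICO), used as progenitor cells, in Matrigel, alone or together, and sorted the cells before bulk RNA sequencing. The 18 libraries fall into 6 groups of 3, numbered replicate 1 to 3 in the labels. HSC from healthy wild-type mice were profiled at day 0, directly after isolation, after 7 days on plastic, after 7 days alone in Matrigel, and after 7 days in Matrigel with organoids. The organoids, which carried a dTomato tag, were profiled after 7 days alone in Matrigel and after the co-culture.

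The labels give every sample the same growth medium, equal parts of DMEM with serum and of Advanced DMEM/F12 with the supplements B27 and N2, N-acetylcysteine, gastrin, nicotinamide and the growth factors EGF, FGF10, HGF and RSPO3. No added CSF1 or IL34 is named in it. Neither the strain and age of the mice nor the gate used to sort the HSC is given in the sources used here. The labels do not tie replicates to animals. Titles of HSC and organoid libraries from the co-culture share a letter and number, which may mark fractions of the same cultures, and the labels do not say so. The p-values therefore cover the spread between these libraries, part or all of which may be technical.

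As background, CSF1R is the receptor tyrosine kinase on which most tissue macrophages depend for survival, and CSF1 and IL34 are its ligands, made mainly by the stromal and epithelial cells around them. Kupffer cells are the macrophages that reside in the liver sinusoids. In the mouse they are marked by the lectin Clec4f, by Timd4, by the complement receptor Vsig4 and by the secreted protein Cd5l, while genes such as Adgre1 (F4/80), Cd68 and Lyz2 are shared by most macrophages. Trem2 and Gpnmb mark macrophages that take up lipid and cell debris. Spi1 encodes PU.1, the transcription factor of the ETS family that macrophages need to form.

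Promoters of 4 members are shown because these genes went different ways between fresh cells and the Matrigel culture, described further on: Clec4f was almost absent after culture, Vsig4 was detected in every Matrigel library, and Lyz2 and Gpnmb were higher there than at day 0. Each sequence holds the 250 bases before the RefSeq transcript start on GRCm38.p6, written 5′ to 3′ on the gene's strand. Capitals mark matches to GAGGAA or GGAAGT, letters found in binding sites of PU.1 and other ETS factors, or to TGACTCA, the AP-1 motif, on either strand. The Clec4f sequence is chr6:83656117-83656366 (minus strand), the Vsig4 sequence chrX:96293439-96293688 (minus), the Lyz2 sequence chr10:117282273-117282522 (minus) and the Gpnmb sequence chr6:49036268-49036517 (plus).
Clec4f: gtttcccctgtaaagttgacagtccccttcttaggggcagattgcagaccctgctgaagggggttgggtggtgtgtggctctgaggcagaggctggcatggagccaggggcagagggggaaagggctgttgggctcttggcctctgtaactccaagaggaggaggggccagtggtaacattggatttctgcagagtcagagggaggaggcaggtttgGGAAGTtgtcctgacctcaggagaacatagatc
Vsig4: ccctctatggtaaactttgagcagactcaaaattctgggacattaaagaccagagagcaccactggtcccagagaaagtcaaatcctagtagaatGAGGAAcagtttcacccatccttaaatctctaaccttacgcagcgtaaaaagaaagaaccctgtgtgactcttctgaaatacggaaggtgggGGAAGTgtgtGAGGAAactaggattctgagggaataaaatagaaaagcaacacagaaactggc
Lyz2: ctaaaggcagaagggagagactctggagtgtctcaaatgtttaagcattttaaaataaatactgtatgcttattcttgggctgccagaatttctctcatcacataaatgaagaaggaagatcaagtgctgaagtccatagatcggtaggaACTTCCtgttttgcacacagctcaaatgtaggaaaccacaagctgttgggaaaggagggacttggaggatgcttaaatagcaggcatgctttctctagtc
Gpnmb: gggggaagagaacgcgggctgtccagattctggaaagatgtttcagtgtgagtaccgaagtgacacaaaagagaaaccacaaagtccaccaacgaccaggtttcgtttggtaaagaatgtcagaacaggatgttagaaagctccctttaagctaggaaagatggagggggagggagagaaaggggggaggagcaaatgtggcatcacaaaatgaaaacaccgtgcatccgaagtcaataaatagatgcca

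The Clec4f promoter held 1 match, GGAAGT, starting 33 bases before the transcript start. The Vsig4 promoter held 3: GAGGAA 155 and 53 bases before the start, and GGAAGT at 63. The Lyz2 promoter held 1 GGAAGT on the opposite strand, printed as ACTTCC, 100 bases before the start, and the Gpnmb promoter held 0 matches in this window. The RefSeq table had 25 promoters for 23 of the 31 members. GAGGAA occurred on either strand in 13 of the 25 (52.0%), against 23.3% of all 32851 promoters of the same length. GGAAGT occurred in 11 (44.0%, against 19.7% of all), and TGACTCA in 1 (4.0%, against 4.46%). The ETS motifs overlap where GAGGAAGT occurs, which was in 1 of the 25 (4.0%) and 2.44% of all. These shares describe letters in the sequence and were not tested.

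Library totals ran from 6907479 to 22158674 estimated counts. The 10 stellate cell markers examined summed to between 8128 and 92045 CPM (counts scaled to library size) in the HSC libraries and to between 209 and 379 CPM in the organoid libraries, as the labels say. Day 0 HSC libraries also held 16043 to 16902 CPM of 10 hepatocyte markers and 1556 to 1592 CPM of 10 sinusoidal endothelial markers. After culture the hepatocyte sum was at most 143 CPM and the endothelial sum at most 131 CPM in any HSC library, so RNA of these cells moves with the day 0 comparisons and its part in them was not tested. HSC libraries from Matrigel carried cholangiocyte transcripts: an organoid share, estimated as the median ratio of 13 cholangiocyte genes to their level in organoids, was 34.3%, 12.9% and 4.05% in replicates 1 to 3 of HSC alone and 29.2%, 15.3% and 41.9% in the co-culture. Replicate 1 labelled as HSC alone thus held a larger share than co-culture replicates 1 and 2; "alone" is the label's word here, and the source of these transcripts was not tested. The 13 genes were picked from 21 cholangiocyte markers for a level of at least 100 CPM in organoids, with a ceiling of 5 CPM in fresh and plastic-grown HSC. The share of at most 0.270% in those HSC was therefore set by the choice of genes and measures nothing. All 21 markers summed to 77.0 to 82.6 CPM at day 0 and 10.6 to 12.3 CPM on plastic, against 8415 to 8616 CPM in organoids alone. Replicate 3 of the plastic culture stood apart, since the members other than the ligands, Lyz2 and Cd14 summed to 386 CPM in it, against 87.0 and 98.0 CPM in replicates 1 and 2.

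Freshly isolated HSC libraries held macrophage RNA, and which of it was found at day 7 differed between the cultures. In Matrigel alone, Lyz2, Cd68, Trem2 and Gpnmb rose while Clec4f, Timd4 and Cd5l fell. In the libraries labelled as co-culture, most members lay far below their level in Matrigel alone, and no member was called higher. In bulk RNA, fewer cells of a type and less RNA per cell cannot be told apart. The heat map shows all members in every library.

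**Figure D1:**
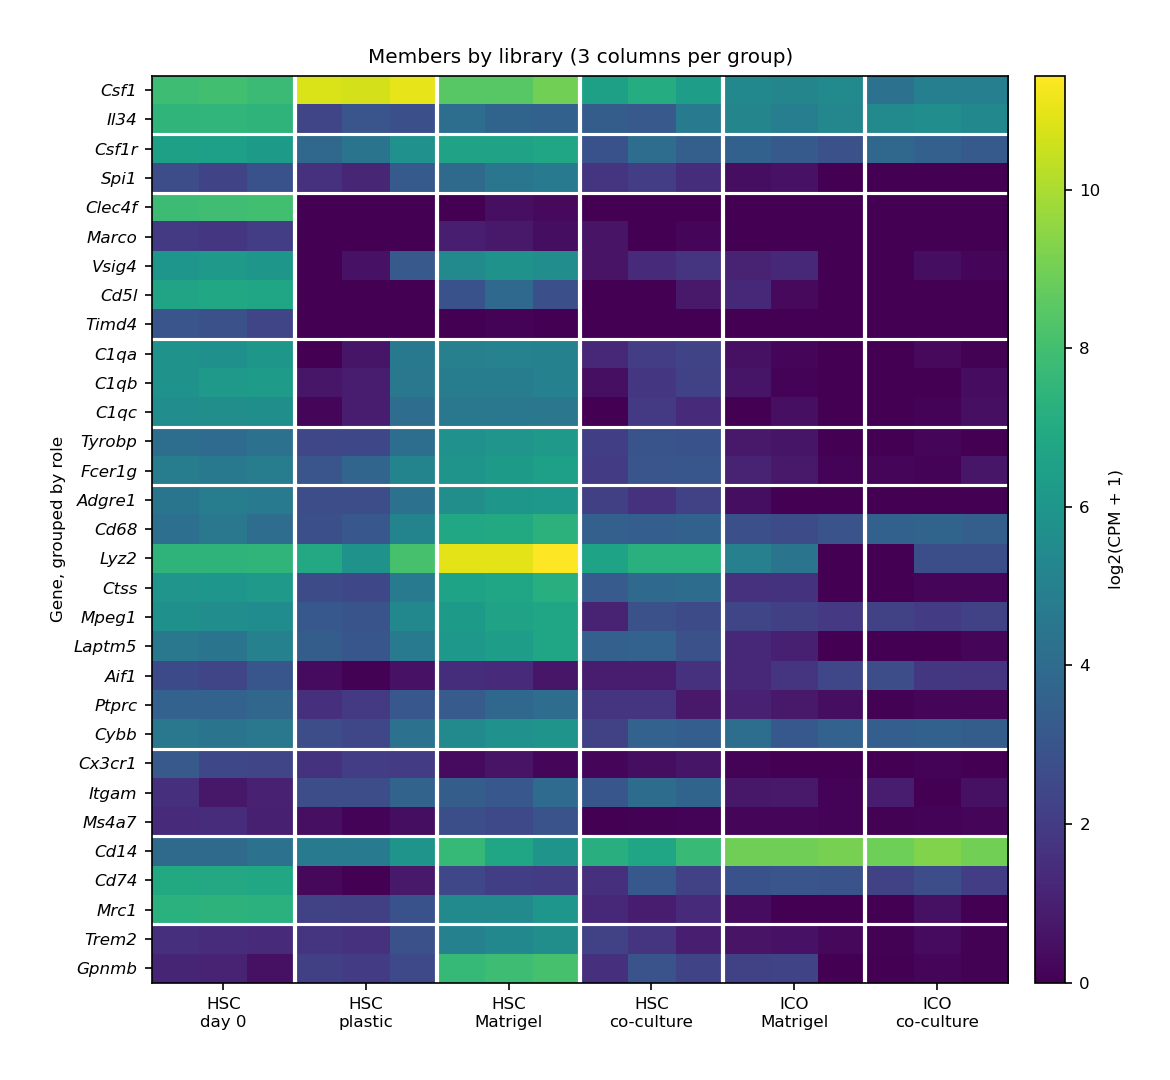
Level of each of the 31 members (rows, grouped by role) in each of the 18 libraries (columns, grouped by culture), as colour on a scale of log2(CPM + 1). Clec4f and Cd5l stand out in the 3 day 0 columns and Vsig4 there and in the 3 columns of HSC alone in Matrigel, where Lyz2 reached 1978 to 2769 CPM; the organoid columns are low for most members, with Cd14 at 476 to 608 CPM.

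All 31 members passed the low-count filter among HSC libraries, some, such as Timd4, only through their day 0 level. The test was edgeR's quasi-likelihood test, with a Benjamini-Hochberg adjusted p under 0.05 as the threshold over the 17020 genes tested. From day 0 to plastic, 4 members rose and 16 fell, while 27.5% of all genes tested rose and 30.5% fell (58% in either direction). From day 0 to Matrigel alone, 13 rose and 9 fell, against 19.3% and 21.5% of all genes (40.8% in either direction). From day 0 to the co-culture, 3 rose and 24 fell, against 28.9% and 24.8% (53.7% in either direction). These comparisons share the day 0 libraries.

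Between the cultures, 24 members were higher in Matrigel alone than on plastic and 2 were lower, against 29.9% and 25.2% of all genes (55% in either direction). The co-culture had 4 members higher and 8 lower than plastic, against 22.9% and 19.6% (42.5% in either direction), and 7 higher and 4 lower without plastic replicate 3. In the co-culture compared with Matrigel alone, 0 members were higher and 22 lower, against 17.3% and 13.8% of all genes (31.1% in either direction). At an unadjusted p under 0.05 edgeR had 0 higher and 23 lower, and DESeq2 called 0 higher and 21 lower. The median log2 difference of the members was -3.34, compared with 0.03 over all genes tested, and -3.18 with the Clec4f difference set to its bound. The count of 22 was 20 after the organoid share was subtracted from the counts, and 23 without plastic replicate 3, which shares the fit. Without that library 28 members changed from day 0 to plastic (3 higher, 25 lower) and 26 from day 0 to Matrigel alone (16 higher, 10 lower).

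Counts over all genes depended on the scaling. Library sizes alone, without the TMM (trimmed mean of M values) factor, moved the median log2 change of all genes by 0.59 from day 0 to Matrigel alone, by 0.43 to the co-culture and by 0.27 to plastic. Under it 8604 genes were higher and 1936 lower in Matrigel alone than at day 0, in place of 3279 and 3667. For the co-culture it gave 7578 higher and 2964 lower than day 0, in place of 4917 and 4223, and for plastic 5909 and 4104, in place of 4678 and 5192. Matrigel alone against plastic had 6785 and 2870 in place of 5081 and 4283, the co-culture against plastic 4782 and 2546 in place of 3901 and 3338, and the co-culture against Matrigel alone 2028 and 3129 in place of 2949 and 2341. Among the members it gave 15 higher and 7 lower in Matrigel alone than at day 0, and again 0 higher and 22 lower in the co-culture than in Matrigel alone.

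Csf1, the ligand that supports macrophages throughout the body, was the member with the greatest rise on plastic. At day 0 its level was 234, 249 and 223 CPM in replicates 1 to 3, and on plastic 1781, 1643 and 2076 CPM. HSC alone in Matrigel held 355, 358 and 519 CPM, and HSC from the co-culture 89.4, 136 and 83.8 CPM. The groups did not overlap: plastic was highest, Matrigel alone next, day 0 below it and the co-culture lowest. The log2 change from day 0 was 3.02 ± 0.21 (SE) on plastic (edgeR adjusted p = 7.34e-08), 0.81 ± 0.20 in Matrigel alone (adjusted p = 0.0053) and -1.14 ± 0.20 in the co-culture (adjusted p = 0.000313). Csf1 was lower in the co-culture than in Matrigel alone by a log2 difference of -1.95 ± 0.21 (adjusted p = 1.18e-05), and the value with the organoid share subtracted was -1.84 (adjusted p = 1.57e-06). No alternative removed one of these calls.

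Il34, the ligand known from neurons, skin and inflamed epithelia, fell in every culture. It stood at 175, 181 and 175 CPM at day 0 and at 4.22, 7.01 and 6.01 CPM on plastic. In Matrigel alone it measured 16.7, 11.7 and 10.8 CPM, and in the co-culture 9.35, 8.17 and 25.8 CPM. All 3 day 0 libraries lay far above the 9 cultured ones, and the Matrigel groups overlapped each other. Relative to day 0 the log2 change was -4.87 ± 0.42 on plastic (edgeR adjusted p = 2.07e-06), -3.76 ± 0.40 in Matrigel alone (adjusted p = 2.34e-05) and -3.55 ± 0.39 in the co-culture (adjusted p = 1.81e-05). Between the Matrigel groups the difference was 0.21 ± 0.37 (adjusted p = 0.708).

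Organoids themselves held more Il34 than cultured HSC, with 36.0, 28.4 and 38.7 CPM alone and 43.8, 47.5 and 39.5 CPM after co-culture. The organoid share times that level would give 11.8, 4.43 and 1.39 CPM of Il34 in HSC alone in Matrigel, where 16.7, 11.7 and 10.8 CPM were measured, and 12.7, 6.67 and 18.3 CPM in co-cultured HSC. Il34 was called higher in both Matrigel groups than on plastic, by 1.11 ± 0.39 (edgeR adjusted p = 0.03) and 1.32 ± 0.39 (adjusted p = 0.0177) on the log2 scale. With the share subtracted these differences were 0.55 (adjusted p = 0.562) and -0.19 (adjusted p = 0.882). The same product for Csf1 was at most 13.5 CPM in any HSC library.

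**Figure D2:**
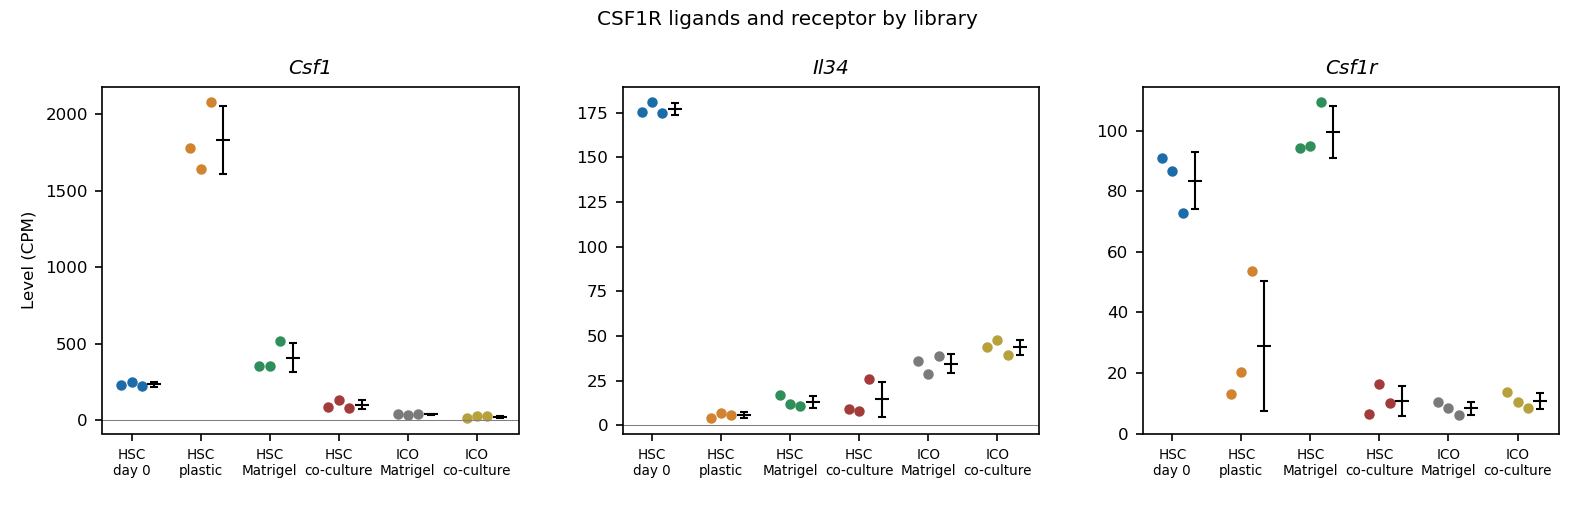
Level in CPM (linear axes that differ between panels) of the ligands Csf1 and Il34 and the receptor Csf1r in the 6 groups; points are libraries and the black mark is the mean ± SD (n = 3). Csf1 peaks on plastic (1643 to 2076 CPM), Il34 is high only at day 0 (175 to 181 CPM), and Csf1r is at 94.2 to 109 CPM in HSC alone in Matrigel but at most 16.2 CPM in co-cultured HSC.

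Csf1r, the receptor, was found at day 0 at 90.9, 86.8 and 73.0 CPM and in Matrigel alone at 94.2, 94.8 and 109 CPM. It was at 13.2, 20.2 and 53.5 CPM on plastic and at 6.40, 16.2 and 9.92 CPM in the co-culture. Day 0 and Matrigel alone did not overlap but lay close together, plastic was lower with replicate 3 its highest library, and co-cultured HSC overlapped the organoids, which held 6.12 to 13.6 CPM. From day 0 the log2 change was 0.26 ± 0.43 in Matrigel alone (edgeR adjusted p = 0.66), -1.47 ± 0.45 on plastic (adjusted p = 0.0158) and -2.87 ± 0.48 in the co-culture (adjusted p = 0.000503). Without plastic replicate 3 the plastic change was -2.24 (adjusted p = 6.81e-05). Csf1r was lower in the co-culture than in Matrigel alone by -3.12 ± 0.48 (adjusted p = 0.000736).

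Spi1, the lineage factor, was at 5.57, 4.15 and 6.38 CPM at day 0 and rose to 14.3, 21.2 and 25.4 CPM in Matrigel alone. It measured 2.11, 1.34 and 8.42 CPM on plastic and 2.43, 3.26 and 1.86 CPM in the co-culture. Matrigel alone lay above every other HSC group. Spi1 changed from day 0 to Matrigel alone by 1.93 ± 0.54 on the log2 scale (edgeR adjusted p = 0.0119), and the difference between co-culture and Matrigel alone was -2.96 ± 0.57 (adjusted p = 0.00172). Receptor, ligand Csf1 and lineage factor all fell in co-cultured HSC against HSC alone in Matrigel, and Il34 was not called.

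Among the 5 Kupffer genes, Clec4f, the lectin found on Kupffer cells, had 230.1, 240.4 and 248 CPM at day 0. On plastic and in the co-culture all 6 libraries held 0 counts. In Matrigel alone the libraries held 0, 0.396 and 0.224 CPM, which is 10 counts in all and 0.0862% of the day 0 mean. Clec4f was at least 4201-fold lower on plastic than at day 0 and at least 3417-fold lower in the co-culture, where the bound sets each empty group at 3 counts in all. In Matrigel alone the log2 change was -10.10 ± 0.39 (edgeR adjusted p = 1.43e-07). Clec4f was also called lower in the co-culture than in Matrigel alone, at least 2.94-fold (adjusted p = 0.0404), with overlapping groups and the call lost in 6 of 15 alternatives.

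Cd5l, a secreted protein of tissue macrophages, was at 101, 116 and 106 CPM at day 0, at 0 on plastic, and at 0, 0 and 0.704 CPM in the co-culture. Matrigel alone kept a trace of it, with 6.42, 14.2 and 5.82 CPM, or 8.19% of the day 0 mean. The log2 change from day 0 to Matrigel alone was -3.61 ± 0.52 (edgeR adjusted p = 0.000652), and on plastic Cd5l was at least 1891-fold lower. In the co-culture it lay below Matrigel alone by -5.01 ± 0.77 (adjusted p = 0.0014). Timd4, the phosphatidylserine receptor of long-lived Kupffer cells, was at 7.06, 6.19 and 4.32 CPM at day 0 and had 0 counts on plastic and in the co-culture, at least 103-fold and at least 83.5-fold lower. Matrigel alone held 1 count of Timd4 in its 3 libraries, 0.359% of the day 0 level (exact 95% counting interval 0.00905 to 2.02%, counting error only).

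Vsig4, the complement receptor with which Kupffer cells capture opsonised particles, was not called in Matrigel alone in the fit of all HSC libraries. Its level was 64.1, 68.8 and 66.0 CPM at day 0 and 41.8, 58.5 and 47.2 CPM in Matrigel alone, 74.2% of the day 0 mean. It was at 0, 0.480 and 8.18 CPM on plastic and at 0.512, 1.66 and 2.30 CPM in the co-culture. The Matrigel libraries lay just below the day 0 range and far above the other cultures. Its log2 change from day 0 to Matrigel alone was -0.42 ± 0.83 (edgeR adjusted p = 0.71), which was 0.17 (adjusted p = 0.874) with library sizes alone. In a fit of just the 6 day 0 and Matrigel libraries Vsig4 was called lower, at -0.41 (adjusted p = 0.0357). It fell on plastic by 4.48 ± 0.99 on the log2 scale (adjusted p = 0.00336), where the value without plastic replicate 3 was -7.81 (adjusted p = 1.16e-06). From Matrigel alone to co-culture it fell by 4.88 ± 1.06 (adjusted p = 0.00688).

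Marco, the scavenger receptor, was scarce throughout, at 2.82, 2.45 and 3.22 CPM at day 0, 0.936, 0.725 and 0.336 CPM in Matrigel alone, and 0 on plastic. Its fall from day 0 to Matrigel alone (-2.09 ± 0.75, edgeR adjusted p = 0.0448) was lost in 9 of 15 alternatives. In the fit of all HSC libraries, all 5 Kupffer genes fell on plastic and in the co-culture and 4 of 5 in Matrigel alone. The call of Vsig4 in Matrigel alone depended on the libraries in the fit. Clec4f, Timd4 and Marco passed the low-count filter only through their day 0 level. Their direction against day 0 was thus fixed by the filter, and these counts are a description.

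Ratios of counts to Adgre1, which encodes F4/80, in the same library do not depend on library scaling. The ratio of Clec4f to Adgre1 was 8.96 to 11.1 at day 0 and at most 0.00601 in Matrigel alone. The ratio of Cd5l was 4.25 to 4.90 and then 0.0864 to 0.216. That of Vsig4 was 2.56 to 3.09 at day 0 and 0.70 to 0.888 in Matrigel, so Vsig4 too was lower per Adgre1 count. So were C1qa, at 1.96 to 2.82 and then 0.469 to 0.629, and the receptor gene Csf1r, at 2.94 to 4.39 and then 1.44 to 1.91. In the other direction, the ratio of Lyz2 was 6.34 to 8.22 and then 30.5 to 41.1, that of Trem2 0.0660 to 0.0947 and then 0.602 to 0.736, and that of Gpnmb 0.0166 to 0.0606 and then 3.57 to 4.09. None of these day 0 and Matrigel ranges overlapped. Adgre1 itself was called higher in Matrigel alone than at day 0, so a lower ratio need not mean a lower level. The other cultures shared the directions except for Csf1r, at 2.35 to 3.62 on plastic and 1.85 to 7.825 in the co-culture, which overlapped day 0. Every cultured library lay above day 0 for Lyz2, Trem2 and Gpnmb, and below it for Clec4f, Cd5l, Vsig4 and C1qa. The Lyz2 ratio was 10.2 to 21.1 on plastic and 28.2 to 72.65 in the co-culture. That of Trem2 was 0.334 to 0.412 and 0.25 to 1.175. Gpnmb, at 0.265 to 0.612 and 0.556 to 3.15, stayed under Matrigel alone. Co-culture libraries held only 27 to 60 Adgre1 counts. Read counts grow with transcript length, so the ratios compare libraries and not genes, and they have no test.

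**Figure D3:**
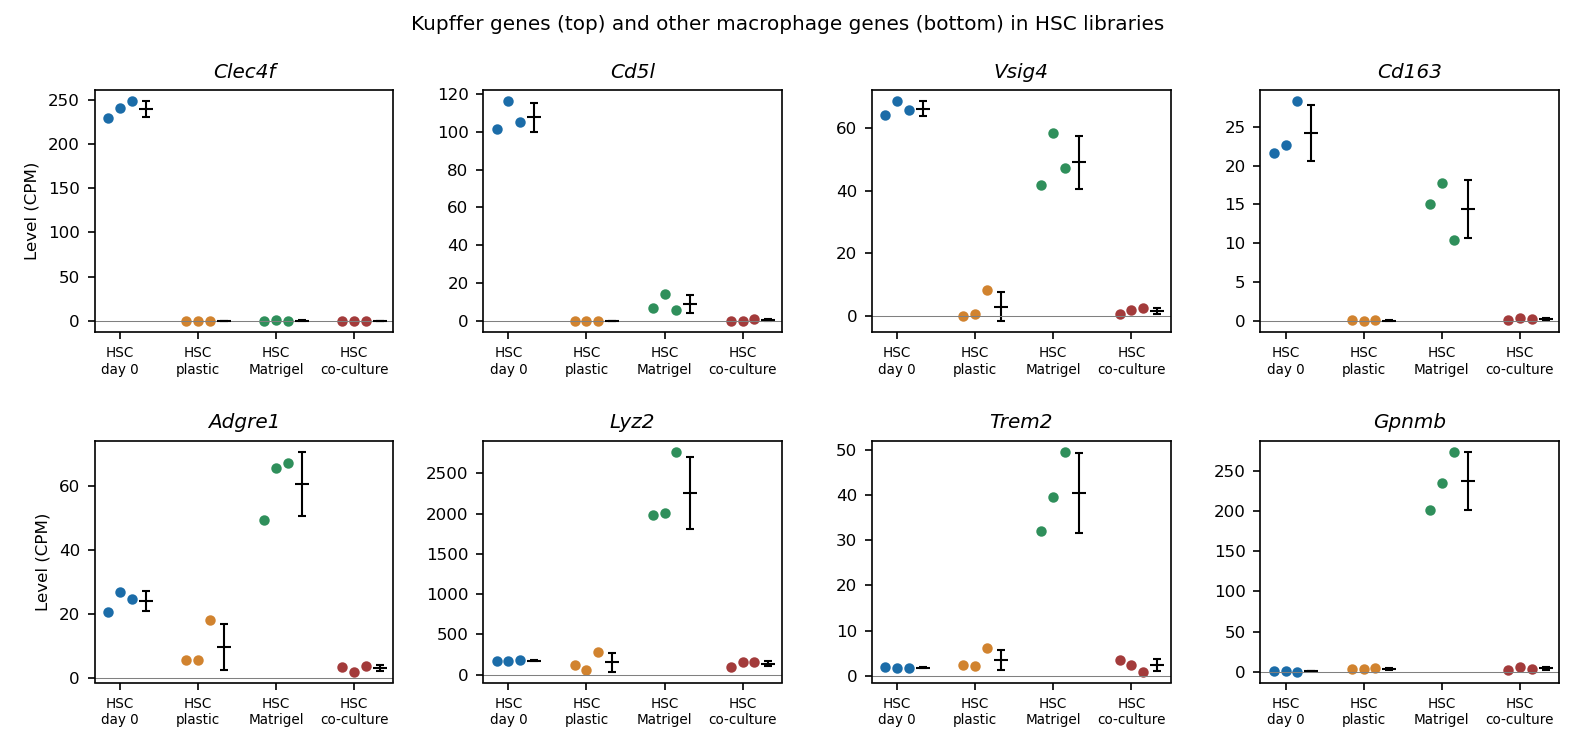
Level in CPM of 8 macrophage genes in the 4 HSC groups, points being libraries and black marks the mean ± SD (n = 3), on linear axes that differ between panels; the top panels show genes of Kupffer cells (Clec4f, Cd5l, Vsig4, Cd163) and the bottom panels general and lipid-associated macrophage genes (Adgre1, Lyz2, Trem2, Gpnmb). In Matrigel alone Clec4f is at most 0.396 CPM and Vsig4 at 41.8 to 58.5 CPM, while all 4 bottom genes lie above their day 0 values, and in the co-culture all 8 lie below Matrigel alone or at 0.

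The C1q chains, which macrophages secrete as the recognition part of the first complement component, kept a middle position. C1qa was at 58.4, 52.6 and 64.7 CPM at day 0 and at 31, 32.9 and 31.6 CPM in Matrigel alone. It was at 0, 0.576 and 24.0 CPM on plastic and at 1.41, 3.21 and 4.09 CPM in the co-culture. Matrigel alone had 54.4% of the day 0 mean of C1qa, 41.8% of C1qb and 45.8% of C1qc, with no overlap between the groups for any chain. Plastic replicate 3 held 24.0, 22.6 and 15.9 CPM of the 3 chains, while replicates 1 and 2 held at most 0.913 CPM of any. In the same library Clec4f and Cd5l were at 0.

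The tests of these genes depended on plastic replicate 3. From day 0 to Matrigel alone the log2 changes were -0.87 ± 1.10, -1.25 ± 0.99 and -1.12 ± 1.03 for C1qa, C1qb and C1qc, and 0 of 3 passed, also at an unadjusted p under 0.05 (edgeR adjusted p = 0.558, 0.342 and 0.412; DESeq2 called neither C1qa nor C1qb and gave C1qc no adjusted p). In a fit of the 6 day 0 and Matrigel libraries alone all 3 fell, with log2 changes of -0.85, -1.23 and -1.10 (adjusted p = 0.000269, 5.59e-05 and 3.43e-05). Without that library C1qb passed at -1.26 (adjusted p = 0.0115). C1qb and C1qc fell on plastic, by 3.04 ± 1.07 and 3.07 ± 1.12 (adjusted p = 0.034 and 0.0385), calls lost in 8 of 15 and 8 of 14 alternatives. Without replicate 3 all 3 chains fell there, with log2 changes of -7.39, -6.47 and -6.36. From Matrigel alone to co-culture C1qb fell by 3.54 ± 1.17 (adjusted p = 0.0448) and C1qc by 3.68 ± 1.22 (adjusted p = 0.0463), calls lost in 8 of 16 and 9 of 15 alternatives. The C1qa difference was -3.34 ± 1.28 (adjusted p = 0.0758), and -3.34 (adjusted p = 6.24e-05) without plastic replicate 3.

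Tyrobp (DAP12) and Fcer1g, the adaptors that carry signals from activating receptors such as TREM2 and the Fc receptors, rose in Matrigel alone. Tyrobp went from 16.7, 14.9 and 18.4 CPM at day 0 to 54.9, 61.3 and 68.7 CPM, a log2 change of 1.89 ± 0.43 (edgeR adjusted p = 0.00433). Fcer1g went from 27.1, 23.3 and 26.8 CPM to 58.8, 73.1 and 86.9 CPM, a change of 1.51 ± 0.47 (adjusted p = 0.0254) lost in 6 of 16 alternatives. Both were low in the co-culture, Tyrobp at 3.33, 6.88 and 6.46 CPM and Fcer1g at 3.07, 6.98 and 7.36 CPM. The differences from Matrigel alone were -3.39 ± 0.46 for Tyrobp (adjusted p = 0.00021) and -3.57 ± 0.52 for Fcer1g (adjusted p = 0.000477). On plastic neither was called lower than day 0 (adjusted p = 0.0907 and 0.423), though both were without replicate 3, at -1.81 (adjusted p = 7.99e-05) and -1.32 (adjusted p = 0.00363).

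Of the 9 general macrophage and leukocyte genes, 4 rose from day 0 to Matrigel alone, 1 fell and 4 were not called. Over all genes tested 19.3% rose and 21.5% fell. All 9 were higher in Matrigel alone than on plastic, against 29.9% of all genes. The calls of Aif1, Ptprc and Mpeg1 there were lost in 2 of 14, 3 of 15 and 2 of 15 alternatives. In the co-culture 8 of 9 were lower than in Matrigel alone, against 13.8% of all genes. Adgre1 was at 20.7, 26.8 and 24.8 CPM at day 0, 49.3, 65.9 and 67.4 CPM in Matrigel alone, and 3.46, 2.07 and 3.84 CPM in the co-culture. The Matrigel libraries all lay above day 0 and the co-culture all below it. Its log2 change was 1.34 ± 0.39 from day 0 to Matrigel alone (edgeR adjusted p = 0.0167, lost in 3 of 16 alternatives) and -4.26 ± 0.46 from Matrigel alone to co-culture (adjusted p = 3.26e-05).

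Lyz2, the lysozyme of macrophages and neutrophils, rose most in this group. It had 170.3, 170.1 and 177 CPM at day 0 and 1978, 2012 and 2769 CPM in Matrigel alone. It had 118, 57.0 and 277 CPM on plastic and 97.5, 150.3 and 153 CPM in the co-culture. With all HSC libraries in the fit, the change from day 0 passed in Matrigel alone, at 3.72 ± 0.48 (edgeR adjusted p = 0.00014), and the co-culture lay below Matrigel alone by -4.03 ± 0.49 (adjusted p = 0.00013). Lyz2 is near-identical to its neighbour Lyz1, so reads of the pair may have been divided in the authors' counting. Cd68, a lysosomal membrane protein, was at 17.0, 23.0 and 16.0 CPM at day 0, 112, 124 and 162 CPM in Matrigel alone and 10.2, 9.62 and 10.7 CPM in the co-culture. It rose by 2.83 ± 0.56 in Matrigel alone (adjusted p = 0.00282) and was lower in the co-culture by -3.66 ± 0.59 (adjusted p = 0.00117).

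Laptm5, a lysosomal protein of blood cells, also rose in Matrigel alone, from 22.8, 19.9 and 31.9 CPM at day 0 to 68.0, 81.9 and 104 CPM (1.78 ± 0.42, edgeR adjusted p = 0.00599). In the co-culture it was at 10.2, 11 and 6.14 CPM, a log2 difference of -3.18 ± 0.45 from Matrigel alone (adjusted p = 0.000338). Ctss, Mpeg1 and Cybb, which encode cathepsin S, the pore-forming perforin-2 and the NADPH oxidase subunit NOX2, had higher values in all 3 Matrigel libraries than at day 0 without passing (adjusted p = 0.233, 0.268 and 0.0595). All 3 passed without plastic replicate 3, at 0.84, 0.91 and 1.22 (adjusted p = 0.00347, 0.0445 and 0.00516). Their co-culture levels were 8.70, 13.8 and 15.5 CPM for Ctss, 1.15, 6.21 and 5.18 CPM for Mpeg1 and 3.58, 11.1 and 9.66 CPM for Cybb. Each lay below all Matrigel libraries, with differences of -3.14 ± 0.59, -4.33 ± 0.73 and -2.59 ± 0.50 (adjusted p = 0.0028, 0.00175 and 0.00266). Ptprc, the leukocyte antigen CD45, overlapped between day 0 (11.1 to 12.8 CPM) and Matrigel alone (8.76 to 16.1 CPM), with a change of 0.12 ± 0.47 (adjusted p = 0.856). In the co-culture it was at 2.43, 2.28 and 0.704 CPM, -2.79 ± 0.53 against Matrigel alone (adjusted p = 0.00139).

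Aif1 (IBA1) was the gene of this group that fell in Matrigel alone. It was at 4.86, 4.22 and 7.34 CPM at day 0, 1.81, 1.65 and 0.616 CPM in Matrigel alone and 0.896, 0.879 and 2.11 CPM in the co-culture. It fell from day 0 to Matrigel alone by 2.01 ± 0.60 (edgeR adjusted p = 0.0158) and did not differ by more than the spread between the Matrigel groups (0.01 ± 0.60, adjusted p = 0.999). Organoids held 1.5 to 5.49 CPM of Aif1, above most cultured HSC libraries.

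**Figure D4:**
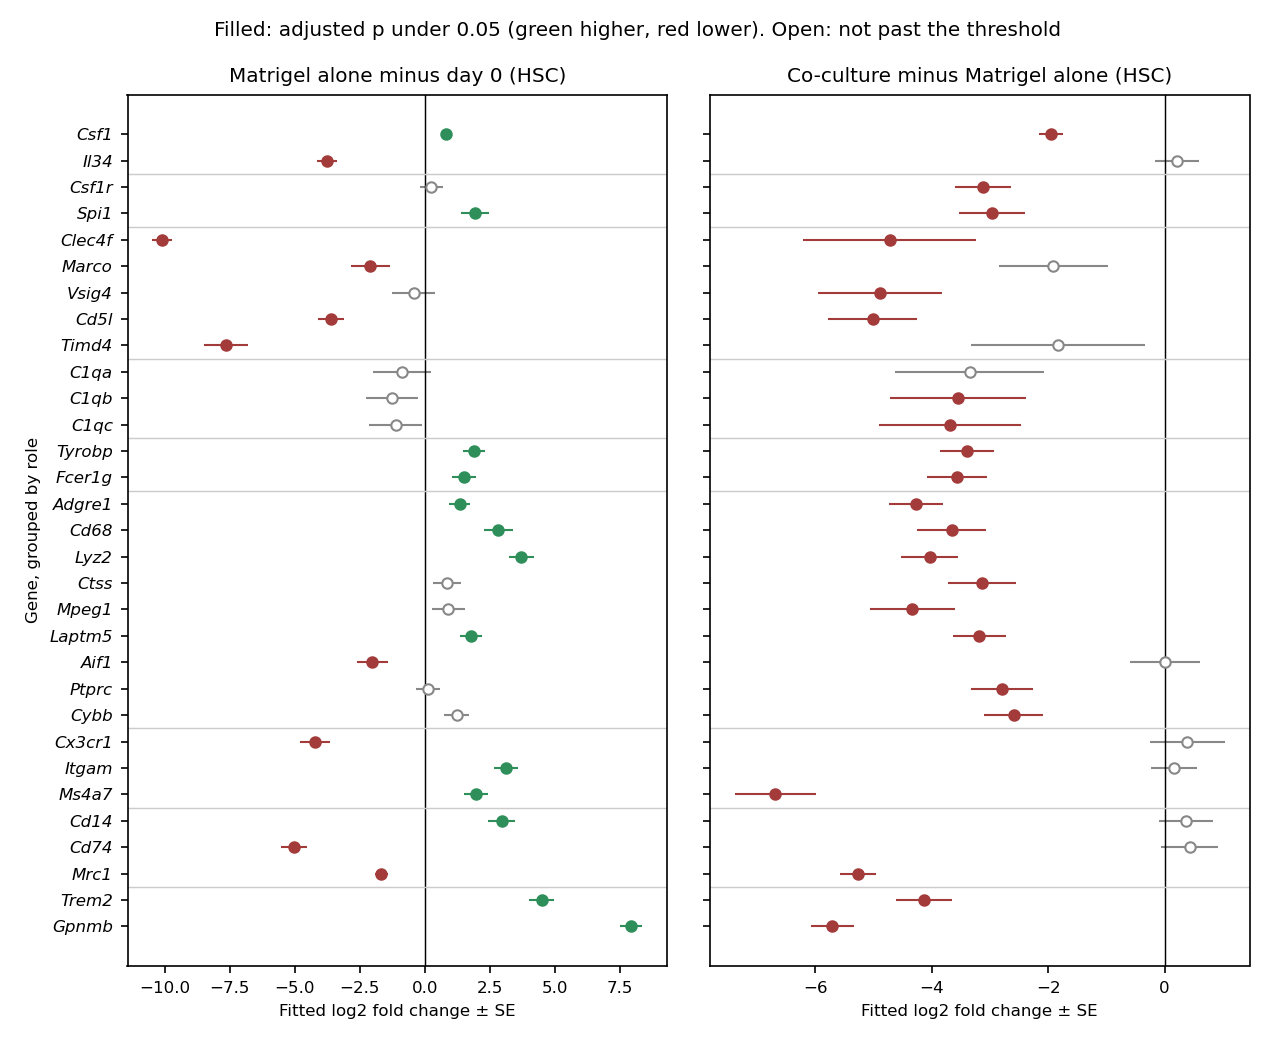
Fitted log2 difference ± SE of each member in HSC, on the left Matrigel alone minus day 0 and on the right co-culture minus Matrigel alone; filled points have an adjusted p under 0.05. On the left the members split, from Clec4f (-10.10) to Gpnmb (7.95), and on the right 22 filled points lie on the lower side and the others are open; Clec4f there rests on a group at 0 counts, so its fitted value is no measure of size.

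The plastic culture, compared with day 0, had lower Kupffer genes and higher Csf1. Of the 9 general genes, Adgre1, Ctss, Aif1 and Ptprc fell there, with the calls of Adgre1 and Ptprc lost in 6 of 15 and 4 of 15 alternatives. Ctss, for example, went from 62.4, 62.5 and 70.7 CPM to 5.08, 4.56 and 25.7 CPM, a log2 change of -2.41 ± 0.57 (edgeR adjusted p = 0.00453), with replicate 3 the highest of the plastic libraries. Cd68, Lyz2, Mpeg1, Laptm5 and Cybb did not pass, and replicate 3 was the highest plastic library for each of them too. Without it all 5 fell, with log2 changes of -1.37, -0.90, -2.67, -1.50 and -2.07 (adjusted p = 0.000217, 0.0213, 0.000244, 0.00101 and 0.000363).

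Between co-culture and plastic, 6 of the 9 general macrophage genes were not called. Over all genes tested 42.5% were called in either direction, so this count is not far from the share of all genes. The 8 members lower in the co-culture than on plastic were Csf1, Csf1r, Fcer1g, Adgre1, Mpeg1, Cx3cr1, Ms4a7 and Mrc1. The 4 higher were Il34, Aif1, Cd14 and Cd74. With the organoid share subtracted, Aif1 stood at 1.05 (edgeR adjusted p = 0.406), Il34 at -0.19 and Cd14 at -1.95, and none of them was called. Csf1r, Fcer1g, Adgre1, Mpeg1 and Ms4a7 stayed negative there but were not called (adjusted p = 0.0594, 0.121, 0.0942, 0.093 and 0.09). Without plastic replicate 3, Csf1r, Fcer1g, Mpeg1 and Ms4a7 were not called lower (adjusted p = 0.116, 0.0847, 0.172 and 0.0806) and Il34 was not called higher (adjusted p = 0.0518). In the same fit Vsig4, C1qa, C1qb and Ctss were called higher in the co-culture, by 2.51, 3.17, 1.68 and 1.39 on the log2 scale (adjusted p = 0.0142, 0.00235, 0.0333 and 0.000886). Over all alternatives the Mpeg1 call was lost in 9 of 15 and the Ms4a7 call in 8 of 13. Csf1 differed most, by -4.17 ± 0.22 on the log2 scale (edgeR adjusted p = 3.63e-08). Cd74 was at 1.92 to 7.81 CPM in the co-culture and at most 0.722 CPM on plastic, a difference of 3.96 ± 0.69 (adjusted p = 0.000965).

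The genes shared with monocytes or monocyte-derived macrophages went 3 ways. Ms4a7, a membrane protein of macrophages that enter tissues from blood, was at 1.65, 1.70 and 1.03 CPM at day 0 and at 5.75, 4.68 and 6.66 CPM in Matrigel alone, a log2 change of 1.97 ± 0.47 (edgeR adjusted p = 0.00458). The co-culture held 2 counts of it over 3 libraries, 0.813% of the Matrigel level (exact 95% counting interval 0.0979 to 2.96%). Cx3cr1, the fractalkine receptor, fell from 8.24, 4.49 and 4.32 CPM at day 0 to 0.267, 0.527 and 0.112 CPM in Matrigel alone, a change of -4.21 ± 0.59 (adjusted p = 8.3e-05). It was at 2.18, 3.27 and 2.95 CPM on plastic, a difference from day 0 of -0.95 ± 0.48 (adjusted p = 0.106), and at most 0.576 CPM in the co-culture.

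Itgam, the integrin CD11b of monocytes, neutrophils and macrophages, rose in all 3 cultures. It was at 1.88, 0.681 and 1.10 CPM at day 0, 5.54, 5.43 and 11.6 CPM on plastic, 9.29, 7.71 and 15 CPM in Matrigel alone and 7.42, 15.4 and 11.8 CPM in the co-culture. The cultured groups overlapped one another and lay above day 0. The log2 changes were 2.69 ± 0.46, 3.14 ± 0.47 and 3.30 ± 0.47 (edgeR adjusted p = 0.000212, 0.00014 and 5.09e-05). Between co-culture and Matrigel alone the difference was 0.16 ± 0.40 (adjusted p = 0.795), with Ptprc, Csf1r and Spi1 all lower in the same libraries. Organoids held at most 0.801 CPM of Itgam.

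Of the sensing, uptake and presentation genes, Mrc1, the mannose receptor found on Kupffer cells and on sinusoidal endothelium, fell in every culture. It was at 158, 167 and 155 CPM at day 0, 42.5, 44.0 and 64.2 CPM in Matrigel alone, 3.56, 3.46 and 6.44 CPM on plastic and 1.41, 0.828 and 1.66 CPM in the co-culture. The groups were ordered in that way without overlap. The log2 change from day 0 was -1.66 ± 0.24 in Matrigel alone (edgeR adjusted p = 0.00011) and -5.10 ± 0.28 on plastic (adjusted p = 1.24e-08). The co-culture lay below Matrigel alone by -5.27 ± 0.31 (adjusted p = 1.21e-07). Stab2, a receptor of sinusoidal endothelium picked after its values were seen, was at 152 to 163 CPM at day 0 and at most 1.23 CPM in any HSC library from Matrigel. All 10 sinusoidal endothelial markers summed to 1556 to 1592 CPM at day 0, 88.7 to 131 CPM in Matrigel alone and 47.5 to 67.1 CPM in the co-culture. Which cells held the Mrc1 RNA was not tested.

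Cd74, the invariant chain of MHC class II, fell from 122, 117 and 111 CPM at day 0 to 0.198, 0 and 0.722 CPM on plastic, 4.41, 3.36 and 2.97 CPM in Matrigel alone and 1.92, 7.81 and 3.58 CPM in the co-culture. Every cultured library was at a small part of the day 0 level. The log2 change was -5.02 ± 0.51 in Matrigel alone (edgeR adjusted p = 2.09e-05) and -8.56 ± 0.66 on plastic (adjusted p = 1.05e-06). Organoids held 3.2 to 7.01 CPM of Cd74.

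Cd14, the co-receptor for lipopolysaccharide, was found in organoids more than in HSC. Organoids alone held 500.0, 496 and 547 CPM and co-cultured organoids 476, 608 and 509.8 CPM. HSC held 14.5, 14.4 and 18.1 CPM at day 0, 24.6, 25.5 and 60.0 CPM on plastic, 201, 107 and 58.7 CPM in Matrigel alone and 142, 103 and 209 CPM in the co-culture. The organoid share times the organoid level gives 177, 66.2 and 20.8 CPM for Matrigel alone and 155, 81.3 and 223 CPM for the co-culture, in the order in which the measured values stand. From day 0 the log2 change was 2.96 ± 0.51 in Matrigel alone (edgeR adjusted p = 0.00118) and 3.33 ± 0.52 in the co-culture (adjusted p = 0.000356). With the organoid share subtracted these were 1.42 (adjusted p = 0.378) and -0.66 (adjusted p = 0.681), so neither was called. The rise on plastic (1.28 ± 0.49, adjusted p = 0.0448) was lost in 7 of 15 alternatives and stood at 0.75 (adjusted p = 0.195) without plastic replicate 3.

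**Figure D5:**
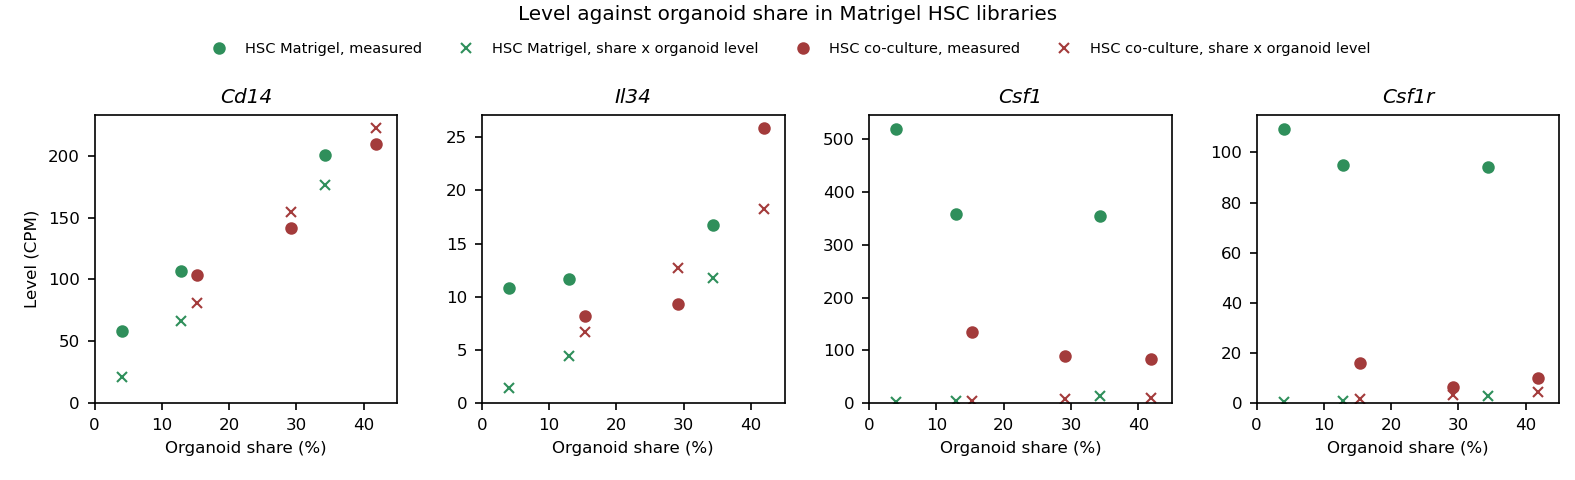
Measured CPM (circles) of Cd14, Il34, Csf1 and Csf1r in the 6 HSC libraries from Matrigel, and the CPM that the organoid share of each library would bring (crosses, share times the organoid level of the same culture), against that share in percent on the horizontal axis. For Cd14 the crosses reach 20.8 to 223 CPM beside measured values of 58.7 to 209 CPM, while for Csf1 they stay at or under 13.5 CPM beside 83.8 to 519 CPM.

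The lipid-associated genes had the largest rises in Matrigel alone among the members. Gpnmb, a lysosomal glycoprotein, was at 1.26, 1.23 and 0.412 CPM at day 0 and at 202, 235 and 274 CPM in Matrigel alone. It was at 3.43, 3.03 and 4.81 CPM on plastic and at 1.92, 6.52 and 4.09 CPM in the co-culture. The log2 change from day 0 to Matrigel alone was 7.95 ± 0.43 (edgeR adjusted p = 5.12e-08), and the co-culture lay below it by -5.70 ± 0.37 (adjusted p = 5.18e-07). Gpnmb also rose on plastic and in the co-culture from its low day 0 level, by 2.02 ± 0.43 (adjusted p = 0.00164) and 2.25 ± 0.43 (adjusted p = 0.000904).

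Trem2, the lipid receptor that signals through Tyrobp, was at 1.96, 1.77 and 1.65 CPM at day 0 and at 32.0, 39.6 and 49.6 CPM in Matrigel alone. It was at 2.31, 2.11 and 6.07 CPM on plastic and at 3.58, 2.43 and 0.960 CPM in the co-culture. Matrigel alone stood above all other groups, with a log2 change from day 0 of 4.50 ± 0.49 (edgeR adjusted p = 1.11e-05) and a difference between co-culture and Matrigel alone of -4.13 ± 0.48 (adjusted p = 3.44e-05). On plastic and in the co-culture Trem2 was not called against day 0 (adjusted p = 0.0784 and 0.557).

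In the organoids themselves 10 of the 31 members passed the low-count filter. The members other than the ligands, Lyz2 and Cd14 summed to 38.4 to 61.0 CPM in organoids alone and 39.6 to 48.1 CPM after co-culture. Between them 1 member was higher and 1 lower after co-culture, against 8.59% and 7.96% of the 13726 genes tested (16.6% in either direction). Csf1 went from 39.5, 36.2 and 42.6 CPM to 18, 29.5 and 29.6 CPM, a log2 change of -0.63 ± 0.16 (edgeR adjusted p = 0.013). Cd68 went from 5.84, 5.37 and 6.71 CPM to 10.9, 12 and 10.2 CPM, a change of 0.87 ± 0.22 (adjusted p = 0.00902). These calls were lost in 3 of 13 and 1 of 13 alternatives. Il34, at 0.33 ± 0.13, did not pass (adjusted p = 0.104).

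Across cell types in Matrigel, 27 members were tested. Of these, 17 did not pass the low-count filter among organoid libraries and entered through the HSC libraries where they were high, so their direction was fixed by the filter and the counts are a description. Alone, 23 were higher in HSC than in organoids and 2 lower, against 30.9% and 25.8% of the 16233 genes tested (56.7% in either direction); the lower ones were Il34 and Cd14. Of the 10 members that also passed among organoids, 6 were higher in HSC, 2 lower and 2 not called. Csf1 was higher in HSC by a log2 difference of 3.46 ± 0.25 (edgeR adjusted p = 3.23e-07) and Csf1r by 3.65 ± 0.30 (adjusted p = 1.17e-06), while Il34 was lower by -1.32 ± 0.36 (adjusted p = 0.00867). With the share subtracted, Il34 stood at -2.01 (adjusted p = 0.0536). In the co-culture 17 were higher in HSC and 2 lower, against 24% and 15.6% of all genes (39.6% in either direction), and of those 10 members 2 were higher and 2 lower. Csf1 was still higher in HSC, by 2.05 ± 0.24 (adjusted p = 2.69e-05), Il34 was lower by -1.54 ± 0.36 (adjusted p = 0.00561), and Csf1r did not differ by more than the spread (0.08 ± 0.28, adjusted p = 0.844).

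The change with co-culture was tested between the cell types as an interaction. It was more negative in HSC for 7 of the 27 members and more positive for 0, against 8.08% and 9.08% of all genes (17.2% in either direction). At an unadjusted p under 0.05 edgeR had 10 and 0, and DESeq2 called 9 and 0. The 7 were Csf1, Csf1r, Cd68, Mpeg1, Cybb, Ms4a7 and Mrc1. Ms4a7 and Mrc1 entered the test through HSC alone in Matrigel: in organoids Ms4a7 had 5 counts alone and 4 in co-culture and Mrc1 had 4 and 6, so their values restate the HSC difference. For Csf1r the log2 change in HSC was below that in organoids by -3.57 ± 0.41 (edgeR adjusted p = 0.000147) and for Csf1 by -1.41 ± 0.32 (adjusted p = 0.0106), although Csf1 fell in both cell types. Many other members had too few counts in organoids for this test to be precise: Adgre1, for example, had 5 counts over the 6 organoid libraries.

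Further genes of macrophages were taken from lists outside the members. Their counts stand beside 19.3% of all genes tested higher and 21.5% lower in Matrigel alone than at day 0, and 17.3% higher and 13.8% lower in the co-culture than in Matrigel alone. Of 10 further Kupffer genes, 5 fell and 1 rose from day 0 to Matrigel alone, and 8 of 10 were lower in the co-culture than in Matrigel alone. The list was not confined to macrophages, since it summed to 285 to 305 CPM in organoids alone and 321 to 367 CPM after co-culture. In HSC alone in Matrigel the sum was 1739 to 2645 CPM. Cd163, the haemoglobin scavenger receptor, was at 21.7, 22.7 and 28.3 CPM at day 0 and 15.1, 17.7 and 10.4 CPM in Matrigel alone, and at most 0.362 CPM in the other cultures. It fell by 0.75 ± 0.28 on the log2 scale from day 0 to Matrigel alone (edgeR adjusted p = 0.0455), and that fall was chosen for mention after its values were seen. Fcna, a ficolin of liver macrophages, fell from 4131, 4062 and 4108 CPM to 358, 505 and 619.7 CPM in Matrigel alone, by 3.04 ± 0.29 (adjusted p = 3.23e-06), and was at 3.84 to 10.2 CPM in the co-culture. Of 27 other myeloid and leukocyte genes tested, 9 rose and 4 fell from day 0 to Matrigel alone, and in the co-culture 19 were lower and 1 higher than in Matrigel alone. C3ar1, the receptor of the complement fragment C3a, went from 5.41, 5.45 and 8.44 CPM to 45.3, 56.5 and 60.7 CPM in Matrigel alone (3.08 ± 0.39, adjusted p = 5.21e-05) and was at 1.41 to 3.65 CPM in the co-culture.

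Of 12 lysosome and lipid genes known from lipid-associated macrophages, 9 rose and 1 fell from day 0 to Matrigel alone, and 7 were lower and 1 higher in the co-culture than in Matrigel alone. These genes were not particular to macrophages, since they summed to 12007 to 14546 CPM in organoids alone. In HSC the sum was 19126 to 20410 CPM at day 0, 15557 to 19924 CPM in Matrigel alone and 10447 to 12852 CPM in the co-culture. Which cells held this RNA was not tested. Lgals3, galectin-3, rose by 4.59 ± 0.28 (edgeR adjusted p = 7.05e-08) from day 0 to Matrigel alone. Spp1, osteopontin, rose by 6.33 ± 0.49 (adjusted p = 1.05e-06) and was the member of that list that was higher still in the co-culture, by 1.53 ± 0.39 (adjusted p = 0.0114); cholangiocytes also make it. Of 9 transcription factors of macrophages, 2 rose and 2 fell from day 0 to Matrigel alone, shares near those of all genes, and 4 were lower and 1 higher in the co-culture. Maf was lower there by -2.37 ± 0.26 (adjusted p = 1.97e-05), while Runx1 was higher by 2.78 ± 0.29 (adjusted p = 1.22e-05).

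Of 16 genes of CSF1R signalling and of other colony stimulating factors, 5 rose and 1 fell from day 0 to Matrigel alone, and 7 were lower and 2 higher in the co-culture than in Matrigel alone. Over all genes, 40.8% were called in either direction in the first of these comparisons and 31.1% in the second. The first count is near that share. Csf3, the neutrophil growth factor, was at most 0.235 CPM in HSC at day 0 and at 69.3, 73.9 and 62.7 CPM in organoids alone. HSC alone in Matrigel had 10.2, 10.4 and 0.224 CPM of Csf3 in replicates 1 to 3. The organoid share times the organoid level would give 23.6, 8.84 and 2.78 CPM there. Replicate 3 had the smallest share, while replicates 1 and 2 were close in Csf3 at shares of 34.3% and 12.9%. Co-cultured organoids held 24.4, 35.6 and 31.6 CPM of Csf3, a log2 change of -1.18 ± 0.13 from organoids alone (edgeR adjusted p = 6.74e-06). Csf2, the growth factor GM-CSF, was at 41.0, 30.8 and 40.1 CPM in organoids alone and at 0 in HSC at day 0 and on plastic. HSC alone in Matrigel held 4.41, 5.27 and 0 CPM of it, and co-cultured HSC 8.19, 2.12 and 8.70 CPM. The organoid share would bring 12.8, 4.80 and 1.51 CPM to the former and 8.12, 4.26 and 11.7 CPM to the latter. Which cells held the Csf3 and Csf2 RNA was not tested.

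The 10 monocyte and neutrophil markers summed to 498 to 558 CPM at day 0, 289.8 to 372 on plastic, 186 to 298 in Matrigel alone and 232 to 287 in the co-culture. Most of each sum was Plac8, named after its values were seen, at 493 to 549.6 CPM at day 0 and 183 to 296 CPM in Matrigel alone. Of 7 monocyte and neutrophil markers tested, 4 were higher and 1 lower in the co-culture than in Matrigel alone. S100a8, a calcium-binding protein of neutrophils and monocytes, was at 6.53, 18.3 and 13.4 CPM in co-cultured HSC and at most 0.545 CPM in any other HSC library; it was 5.51 ± 0.63 above day 0 on the log2 scale (edgeR adjusted p = 6.89e-06). Chil3, a chitinase-like protein of macrophages and neutrophils, was at 1.54, 2.12 and 2.18 CPM there and had 0 counts in every other library. It was at least 31.1-fold higher than in Matrigel alone. Chil3 passed the low-count filter only through the co-culture, so its direction was fixed by the filter. Among HSC libraries S100a8 was likewise high in that group alone. The 4 higher markers are therefore a description. The 6 MHC class II genes summed to 115 to 125 CPM at day 0 and 6.69 to 9.43 CPM in Matrigel alone; 4 of 6 fell between them and 2 were higher in the co-culture than in Matrigel alone. H2-Ab1 was at 0.802, 1.91 and 1.85 CPM in Matrigel alone and at 17.5, 25.7 and 21.9 CPM in the co-culture, a difference of 3.87 ± 0.28 (adjusted p = 3.96e-07), while Cd74 was not called in the same comparison. The 11 lymphocyte and dendritic cell markers summed to 7.35 to 9.67 CPM at day 0, while no cultured library exceeded 3.46 CPM.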

How the data were processed

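The members and gene lists were chosen with earlier results of these data known. Libraries were made with Smart-seq2, which does not mark strand, per the labels' protocols. The authors deposited estimated counts per gene. Per the submitters' processing notes, the tools and build were kallisto 0.46.1, DESeq2 1.36.0 and GRCm39, with no role stated; the annotation release is not given in the sources used here. Estimated counts were rounded, and R 4.3.3 ran edgeR 4.0.16 (quasi-likelihood test with robust fit, TMM scaling, default low-count filter, Benjamini-Hochberg over all genes, threshold 0.05). HSC comparisons used 1 fit of 12 HSC libraries, the organoid comparison 6 libraries, and comparisons across cell types 12 Matrigel libraries. CPM values used TMM factors over all 18 libraries. The SE is the fitted change over the root of the F value. A group at 0 counts was set to 3 counts in all for a bound, which covers counting error only. Promoters came from RefSeq on GRCm38.p6; no other coordinates are printed, since that is not the authors' build. All 31 members may be named, and of each further list the called genes with the largest change, at most 2 per direction and comparison. The Cd163 and Stab2 values in Matrigel were picked after they were seen. Alternatives were DESeq2 1.42.0, other scaling, filters and sets of libraries, a replicate block, subtraction of the organoid share and leaving out each library, plus library sizes alone and the omission of plastic replicate 3 in further comparisons, chosen after seeing the data. The procedure was tested on simulated counts.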

Additional observations from a re-analysis of the deposited data

Results flagged for a closer look

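For 7 members the change with co-culture differed between HSC and organoids, by edgeR's interaction test with adjusted p-values over all genes. On the log2 scale the change in HSC was below that in organoids by -1.41 for Csf1 (adjusted p = 0.0106), -3.57 for Csf1r (adjusted p = 0.000147), -4.62 for Cd68 (adjusted p = 5.48e-07) and -4.40 for Mpeg1 (adjusted p = 0.000258). For Cybb it was -2.43 (adjusted p = 0.00414), for Ms4a7 -6.07 (adjusted p = 0.0021) and for Mrc1 -5.52 (adjusted p = 0.0452). The Mrc1 call was lost in 11 of 20 alternatives, and Ms4a7 and Mrc1 were near 0 in all organoid libraries. Ms4a7 had 5 counts in organoids alone and 4 after co-culture, and Mrc1 had 4 and 6. Both entered the test through HSC alone in Matrigel, so these differences restate the HSC change.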

How the results depend on the processing

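Of 156 member counts under alternatives, 149 lay within 1.5 times the reported count. In the co-culture against plastic the count of 12 became 5 with the organoid share subtracted. Among organoids the count of 2 became 6 without a low-count filter and 1 in a fit of all 18 libraries. Leaving out each library gave 15 to 28 members for plastic against day 0, 18 to 26 for Matrigel alone, 24 to 29 for the co-culture, 22 to 28 for Matrigel alone against plastic and 7 to 11 for the co-culture against plastic. It gave 19 to 23 for the co-culture against Matrigel alone, 1 to 6 among organoids, 24 to 26 and 17 to 20 for HSC against organoids alone and in co-culture, and 6 to 7 for the interaction. The highest counts for plastic against day 0 (28) and Matrigel alone against day 0 (26) came without plastic replicate 3; among organoids, 6 came without replicate 3 of organoids alone and 1 without replicate 1 of the co-culture.

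Of 182 called member tests, 2604 of 2797 alternatives kept the call, 190 lost it and 3 turned it. With the share subtracted, Cd14 in the co-culture stood at -0.66 against day 0 (adjusted p = 0.681) and -1.95 against plastic (adjusted p = 0.236), and Il34 at -0.19 against plastic (adjusted p = 0.882). Without plastic replicate 3, Vsig4, C1qa and C1qb, not called in the co-culture against plastic, were higher there at 2.51 (adjusted p = 0.0142), 3.17 (adjusted p = 0.00235) and 1.68 (adjusted p = 0.0333); the lowest values with another plastic library left out were -1.43, -2.04 and -2.35. The cause was not tested. Over all genes, the count of 5290 for the co-culture against Matrigel alone was 3453 with those 6 libraries alone, and that of 2272 among organoids was 1427 without replicate 1 of organoids alone, 1506 without replicate 1 of the co-culture and 546 in a fit of all 18 libraries; for Matrigel alone against day 0 it was 6946, and 10540 with library sizes alone.

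Over 45 same-numbered pairs the correlation of deviations ran from -0.254 to 0.06, with 0 over 0.1. For HSC and organoids from the co-culture it was 0.0356, 0.0296 and -0.00983 in replicates 1 to 3. With 3 libraries per group, and across cell types, such correlations cannot tell whether same-numbered libraries share a culture or animal. The tests treated the libraries as unpaired. With the replicate number as a block, the 6 HSC comparisons (plastic, Matrigel alone and co-culture against day 0, Matrigel alone and co-culture against plastic, co-culture against Matrigel alone) had 23, 22, 27, 25, 10 and 20 members called, organoids 2, HSC against organoids 24 and 18, and the interaction 6.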
